A study of Mus musculus with 6 samples.

Results

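The 35 genes described here encode subunits of chromatin-remodelling and corepressor complexes: 8 of NuRD, 5 of SIN3, the 3 scaffolds of CoREST, 3 of the NCoR complex, 15 of BAF and the ISWI ATPase Smarca5. They were taken by gene symbol from a deposited table of raw read counts, in which all 35 were found among 25628 symbols. The table held polyadenylated RNA of mouse TgSpi1 erythroleukaemic cells, a line of leukaemic erythroid cells taken from bone marrow, which overexpress the transcription factor PU.1 (gene Spi1) and were grown with erythropoietin. The Dox_Treated group, 3 libraries, spent 48 h in doxycycline, which switches on a short hairpin RNA (shRNA) directed at Spi1. The Dox_Untreated group, 3 libraries, carried the same inducible shRNA and was given no doxycycline. The series is about gene repression by PU.1 together with the deacetylase HDAC1 and the polycomb complex PRC2, and the comparison asks which transcripts change when Spi1 is lowered. All libraries came from 1 line, the labels call those of a group biological replicates without saying what a replicate was, and p-values therefore measure the spread between these samples. No doxycycline-treated cells without the shRNA were analysed here, so the drug and the knockdown cannot be told apart.

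NuRD joins a CHD-family ATPase, which moves nucleosomes, to histone deacetylases through MTA, MBD and GATAD2 subunits. SIN3 and CoREST are scaffolds that bring deacetylases, and in CoREST the demethylase LSD1, to repressors bound on DNA, and NCoR with its TBL1 adaptors does the same for HDAC3. BAF (SWI/SNF) slides or ejects nucleosomes with SMARCA4 or SMARCA2 as its motor, and SMARCA5 is the motor of ISWI complexes, which space nucleosomes evenly. In erythroid cells the factor GATA1 and its partner FOG1 recruit NuRD, GFI1B recruits CoREST with LSD1, and NuRD is known for silencing fetal-type globin genes.

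Total counts lay between 91277560 and 101276319 in the doxycycline libraries and between 78926663 and 98103600 in the untreated libraries. Levels are CPM values, read counts relative to a library total that TMM scaling has corrected for composition, and are listed in the order of replicates 1, 2 and 3. Spi1 stood at 84.8, 80.4 and 62.1 CPM with doxycycline, against 415, 353 and 329.6 CPM in untreated cells (log2 fold change -2.27, SE 0.17, adjusted p = 0.0030). All 8 leukaemic erythroid markers were present, with sums of 3684, 3458 and 5081 CPM with doxycycline and 2421, 2670 and 3517 CPM untreated. The 4 monocyte and macrophage markers analysed summed to 1.29 to 2.72 CPM with doxycycline and 4.75 to 10.5 CPM untreated. The 5 megakaryocyte markers summed to 151, 109 and 33.3 CPM with doxycycline and 291, 201 and 56.5 CPM untreated, lower with doxycycline within each replicate number. B cell, T and NK cell, and stromal markers summed to at most 0.87 CPM with doxycycline and 1.71 CPM untreated. Neutrophil markers summed to 0.066, 8.50 and 7.12 CPM with doxycycline and 0.10, 31.5 and 7.21 CPM untreated, so replicate 1 was lowest in both groups. The part of these marker differences in the values below was not tested, and in bulk RNA fewer cells of a type and less RNA per cell cannot be told apart.

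Between doxycycline-treated and untreated cells the subunit genes moved little as a group. Across the 35 genes 14 were higher and 21 lower with doxycycline, and the median log2 fold change was -0.04, beside 0.0065 over all 14158 genes tested. The tally turned round when the values were corrected for GC content and transcript length, an alternative chosen after the data were seen: 22 were then higher and 13 lower with a median of 0.046. In edgeR's quasi-likelihood fit of the 3 against 3 libraries (the unpaired fit), 0 of the 35 passed an adjusted p of 0.05, where 2.59% of all genes tested did. Only Sap18 had an unadjusted p under 0.05 there, and DESeq2 called 1 member, Sap18, lower (adjusted p = 0.0021; 7.15% of all genes called, 5.1% lower). Libraries with the same replicate number deviated together from their group means, and the fit that compares within replicate numbers (the paired fit) called 8 members, or 22.9%, beside 25.8% of all genes tested. Mta1, Rcor2, Sin3b and Tbl1x rose in the paired fit (10.3% of all genes did), and Chd3, Chd4, Sap18 and Smarca2 fell (15.6% of all genes did). The share of members called was thus close to that of all genes. Doxycycline and untreated libraries did not overlap for 5 members, 4 higher (Mta1, Rcor3, Smarcb1 and Smarcd3; 8.88% of all genes) and 1 lower (Sap18; 11.7% of all genes), while 20.6% of all genes did not overlap in either direction. All 3 replicate numbers agreed in direction for 8 members higher (28% of all genes) and 7 lower (29.4%), where 57.4% of all genes agreed in either direction. DESeq2 with the same pairing called 7 of the 8 (24% of all genes), Smarca2 being the exception. Calls in the paired fit varied with the numbers it held. With numbers 2 and 3 alone it called 1 member, Sap18 (8.67% of all genes called), with 1 and 3 it called 10 (24.1%) and with 1 and 2 it called 9 (33.4%). These fits rest on fewer libraries, so their counts are not directly comparable with that of the full paired fit.

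**Figure D1:**
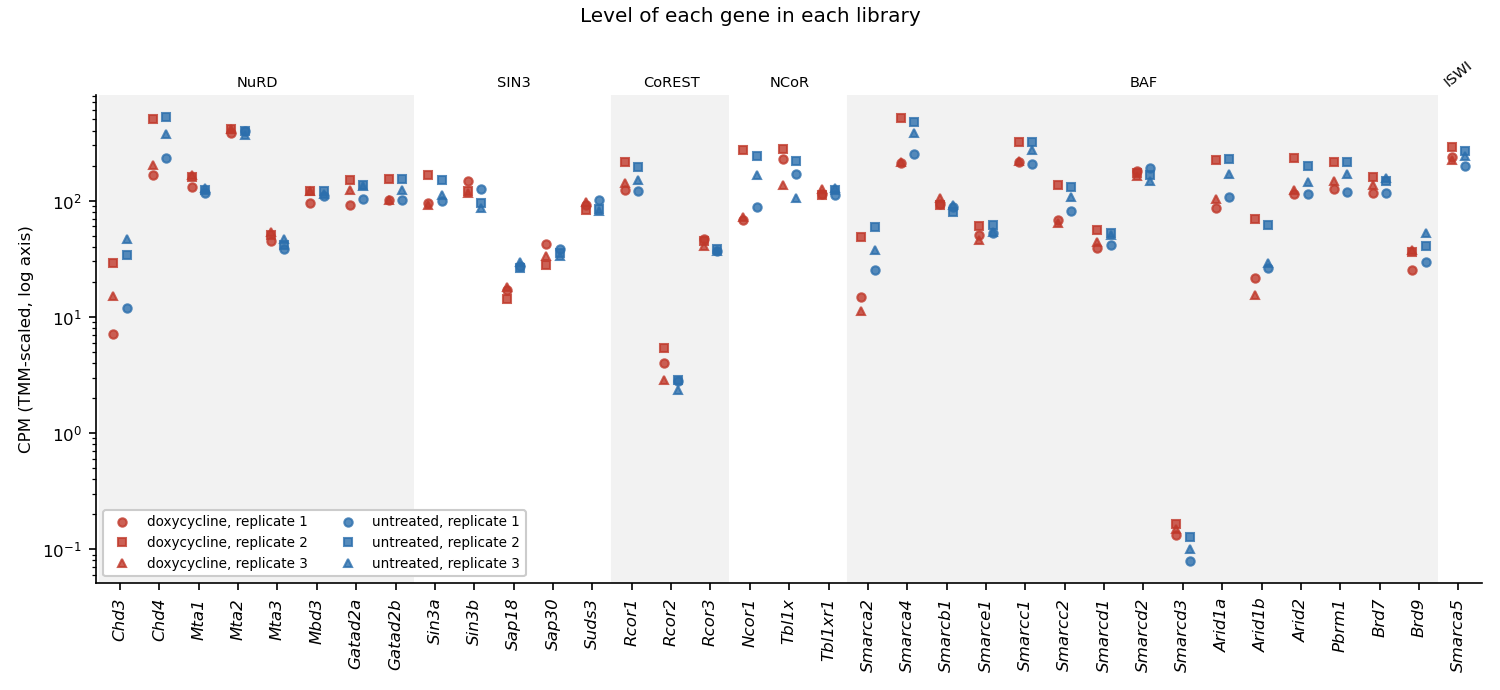
Level of each of the 35 genes in each library, in TMM-scaled CPM on a log axis, grouped by complex; red points are doxycycline libraries, blue points untreated libraries, and the point shape gives the replicate number. Groups overlap for most genes, Sap18 stands apart with all doxycycline points below the untreated ones, and Smarcd3 lies below 0.2 CPM.

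**Figure D2:**
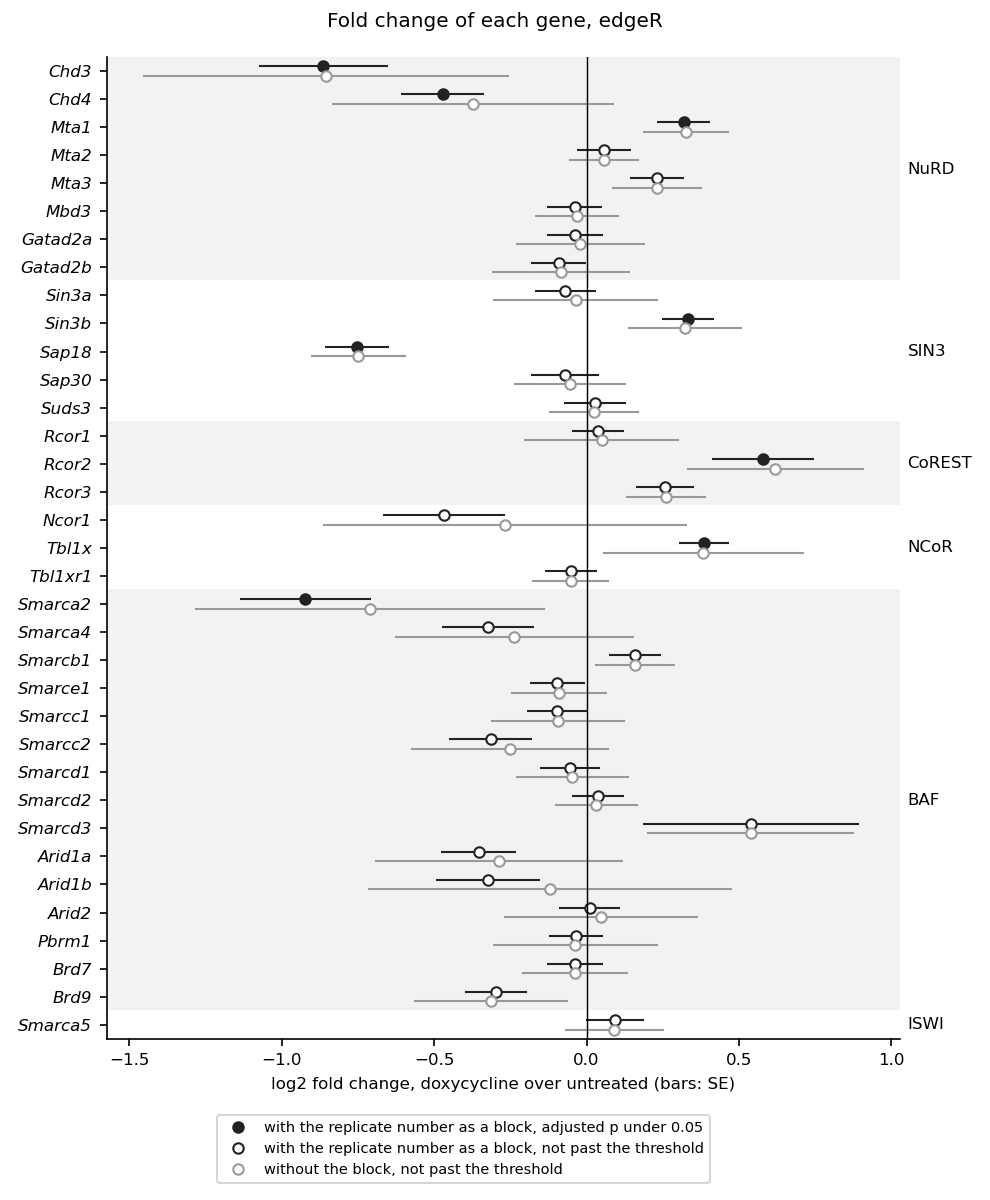
Log2 fold change, doxycycline over untreated, of each gene from the paired fit (black) and the unpaired fit (grey), with bars of 1 SE; filled points have an adjusted p under 0.05. Filled points are Chd3, Chd4, Sap18 and Smarca2 below 0 and Mta1, Sin3b, Rcor2 and Tbl1x above 0, all from the paired fit.

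In NuRD both CHD motor genes fell and the scaffold gene Mta1 rose, in the paired fit alone. Of its 8 genes 1 rose and 2 fell in that fit, where 10.3% of all genes tested rose and 15.6% fell. In the unpaired fit 0 of the 8 passed (2.59% of all genes tested did), and the median log2 fold change was -0.03. Chd4, the main NuRD ATPase (chromosome 6, 125095981 to 125130591, plus strand, GRCm38), had 167, 502 and 201 CPM with doxycycline and 231, 526 and 372 CPM in untreated cells. Within each replicate number the doxycycline library was the lower, while replicate 2 was the highest library of both groups and the groups overlapped. The paired fit gave a log2 fold change of -0.47 (SE 0.14, adjusted p = 0.029) and the unpaired fit -0.37 (SE 0.46, adjusted p = 0.79).

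Chd3, the paralogous ATPase (chromosome 11, 69343273 to 69369406, minus strand), had 7.16, 28.8 and 15.1 CPM with doxycycline, against 11.9, 34.1 and 46.3 CPM untreated. Its differences within numbers 1, 2 and 3 were -0.73, -0.25 and -1.61 on the log2 scale, so the largest came from replicate 3. The paired estimate was -0.86 (SE 0.21, adjusted p = 0.014) and the unpaired one -0.85 (SE 0.60, adjusted p = 0.60).

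The MTA proteins are the scaffold on which the deacetylases dock. Mta1 (chromosome 12, 113098278 to 113137206, plus strand) had 131, 161 and 167 CPM with doxycycline and 115, 122 and 128 CPM untreated. Every doxycycline library lay above every untreated one, and the paired log2 fold change was 0.32 (SE 0.09, adjusted p = 0.023), against 0.33 (SE 0.14, adjusted p = 0.33) unpaired. Mta2, per kilobase of transcript the most abundant of all 35 genes, had 385, 412 and 409 CPM with doxycycline and 398, 399 and 363 CPM untreated. Its groups overlapped, with a log2 fold change of 0.06 (SE 0.11, adjusted p = 0.89). Mta3 had 44.6, 50.3 and 53.7 CPM with doxycycline and 38.6, 41.6 and 46.3 CPM untreated, higher within every number but short of the threshold when paired (0.23, SE 0.09, adjusted p = 0.087). Mbd3, which carries the methyl-CpG-binding fold of the complex, and the bridging subunits Gatad2a and Gatad2b had log2 fold changes of -0.03, -0.02 and -0.08, and none passed in either fit.

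The promoter of Chd4 is shown because this member fell in the paired fit and 1 of its windows holds a GATA1-type motif. RefSeq windows of 250 bases before to 50 after a start site (GRCm38.p6) were found for 31 of the 35 members, 38 windows in all, and were searched on both strands for the GATA1-type motif AGATAA and the PU.1-type motif GAGGAAGT. AGATAA was in 2 windows (5.26%; 11.2% of all promoter windows), that of the upstream start of Chd4 and that of the downstream start of Gatad2b. GAGGAAGT was in 1 window (2.63%; 3.2% of all promoter windows), that of Tbl1xr1, a member that passed in neither fit. Neither motif was more frequent than in promoters at large, and a match is a description, not a binding site. The windows of Chd4 (chr6:125095731-125096030, plus strand) and Tbl1xr1 (chr3:22076402-22076701, plus strand) read as follows, 5′ to 3′, with the motif, here on the opposite strand, in capitals.
Chd4: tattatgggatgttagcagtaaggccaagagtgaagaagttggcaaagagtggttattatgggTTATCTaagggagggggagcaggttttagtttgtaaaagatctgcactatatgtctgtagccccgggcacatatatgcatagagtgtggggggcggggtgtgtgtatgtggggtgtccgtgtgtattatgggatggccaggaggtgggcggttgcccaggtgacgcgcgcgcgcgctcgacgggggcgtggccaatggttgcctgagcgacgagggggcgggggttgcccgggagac
Tbl1xr1: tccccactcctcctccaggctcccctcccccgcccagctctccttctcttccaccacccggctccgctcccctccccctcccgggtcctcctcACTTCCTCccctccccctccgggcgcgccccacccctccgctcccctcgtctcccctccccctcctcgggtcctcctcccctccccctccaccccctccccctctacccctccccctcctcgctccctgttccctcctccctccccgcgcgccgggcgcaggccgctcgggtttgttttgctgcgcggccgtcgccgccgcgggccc

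In SIN3, 1 of 5 genes rose (Sin3b) and 1 fell (Sap18) in the paired fit, where 10.3% of all genes tested rose and 15.6% fell. The median log2 fold change was -0.04 in the unpaired fit. Sin3b, one of the alternative scaffolds (chromosome 8, 72723285 to 72758201, plus strand), had 148, 122 and 116 CPM with doxycycline, against 127, 94.6 and 87.1 CPM untreated. It was higher with doxycycline within each number, although the groups overlapped. Its log2 fold change was 0.33 (SE 0.09, adjusted p = 0.017) paired and 0.32 (SE 0.19, adjusted p = 0.49) unpaired. Sin3a, the other scaffold, had 96.0, 166 and 91.6 CPM with doxycycline and 99.97, 150.5 and 112 CPM untreated (log2 fold change -0.04, SE 0.27, adjusted p = 0.97). Suds3, which helps SIN3 hold its deacetylases and was the most abundant of the 5 per kilobase, had 91.2, 82.6 and 98.0 CPM with doxycycline and 101.9, 84.4 and 81.0 CPM untreated (log2 fold change 0.02, SE 0.15, adjusted p = 0.97). Sap30, a linker between SIN3 and its deacetylases, had a log2 fold change of -0.05 and did not pass in either fit.

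Sap18, a small SIN3-associated protein, had the smallest p of the 35 genes in both fits. It had 17.03, 14.34 and 18.02 CPM with doxycycline and 27.4, 26.2 and 29.3 CPM in untreated cells. Every doxycycline library lay below every untreated one. The log2 fold change was -0.75 (SE 0.10, adjusted p = 5.6e-04) paired and -0.75 (SE 0.16, adjusted p = 0.058) unpaired. The table also held a symbol for a copy of this gene, Sap18b, chosen here after its values had been seen. Sap18 (ENSMUSG00000021963.17) lies on chromosome 14 from 57798180 to 57806638 and Sap18b on chromosome 8 from 95825346 to 95826134, both on the plus strand of GRCm38, and their 516 coding bases were identical, with 0 mismatches. A read from within the coding sequence therefore cannot tell the 2 genes apart (GENCODE transcripts, GRCm38). The deposited counts also held a processed pseudogene, Gm12219, at 92.1% identity over 87.8% of the Sap18 coding sequence. Its counts are not part of the sum of Sap18 and Sap18b given below.

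How reads that match both genes were counted is not given in the sources used here. Sap18b had 80.9, 66.0 and 87.8 CPM with doxycycline, against 85.1, 58.1 and 77.8 CPM untreated, and did not pass in the unpaired fit (log2 fold change 0.09, SE 0.19, adjusted p = 0.90) or the paired one (adjusted p = 0.49). The counts of both genes together came to 97.9, 80.3 and 106 CPM with doxycycline and 112, 84.3 and 107 CPM untreated, or 94.7 ± 13.04 CPM with doxycycline and 101 ± 14.98 CPM untreated (SD, n = 3 each). Their sum overlapped between the groups and did not pass either (paired log2 fold change -0.10, adjusted p = 0.45). Sap18b made up most of the sum in every library, so the sum cannot decide whether Sap18 alone changed. Sap18 took 17.39, 17.86 and 17.03% of the summed counts with doxycycline, against 24.4, 31.1 and 27.4% untreated. The sum was also lower with doxycycline within each replicate number, by a smaller fold than Sap18 itself.

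**Figure D3:**
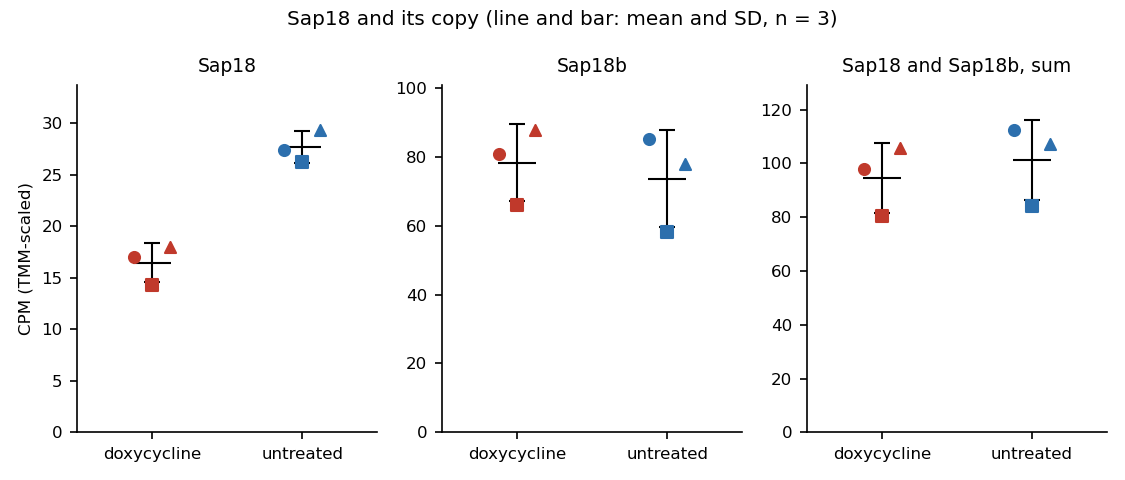
CPM of Sap18, of its copy Sap18b and of both summed, in doxycycline (red, left) and untreated (blue, right) libraries; points are libraries, with the shape giving the replicate number, and the line and bar are the mean and SD (n = 3). Sap18 alone separates the groups, while the sums, at 94.7 ± 13.04 CPM with doxycycline and 101 ± 14.98 CPM untreated, overlap.

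The 3 CoREST scaffolds were all higher with doxycycline in the unpaired estimates, with a median log2 fold change of 0.26. In the paired fit 1 of the 3, Rcor2, rose (10.3% of all genes tested did). Rcor1, the most abundant, had 124, 213 and 143 CPM with doxycycline and 120.1, 195 and 149 CPM untreated (log2 fold change 0.05, SE 0.25, adjusted p = 0.96). Rcor2 (chromosome 19, 7267325 to 7275225, plus strand) was the least abundant, with 4.03, 5.39 and 2.83 CPM with doxycycline, against 2.77, 2.88 and 2.32 CPM untreated. The lowest doxycycline library of Rcor2 lay just under the highest untreated one, and its log2 fold change was 0.58 (SE 0.17, adjusted p = 0.029) paired and 0.62 (SE 0.29, adjusted p = 0.38) unpaired. Rcor3 had 47.1, 45.2 and 40.9 CPM with doxycycline and 36.5, 38.0 and 36.6 CPM untreated. Its groups did not overlap, yet it passed in neither fit (0.26, SE 0.10, adjusted p = 0.072 paired; 0.26, SE 0.13, adjusted p = 0.43 unpaired).

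Of the NCoR genes, 1 of 3 rose in the paired fit (10.3% of all genes tested did), with a median log2 fold change of -0.05 unpaired. Tbl1x, an adaptor that exchanges corepressors for coactivators (chromosome X, 77511013 to 77662983, plus strand), had 228, 279 and 137 CPM with doxycycline and 170.4, 218 and 106 CPM untreated. Replicate 3 was low in both groups, and the difference within the numbers was nearly constant, at 0.42, 0.36 and 0.38 on the log2 scale. The log2 fold change of 0.38 had an SE of 0.08 when paired (adjusted p = 0.0070) and of 0.33 when unpaired (adjusted p = 0.68). Ncor1, the scaffold itself, had 68.0, 272 and 71.9 CPM with doxycycline, against 88.0, 241 and 166 CPM untreated. Its differences within numbers 1, 2 and 3 were -0.37, 0.17 and -1.21, so the numbers disagreed in sign, and the paired log2 fold change of -0.47 did not pass (SE 0.20, adjusted p = 0.11). Tbl1xr1, the paralogous adaptor, had a log2 fold change of -0.05 (SE 0.13, adjusted p = 0.91).

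Of the 15 BAF genes 11 were lower and 4 higher with doxycycline, and the median log2 fold change was -0.09 in the unpaired fit. The paired fit called 1 of 15 (6.67%), Smarca2, beside 25.8% of all genes tested. With the length and GC correction 7 were lower and 8 higher in the unpaired fit, with a median of 0.0025. With the same correction in the paired fit 8 were lower and 7 higher, with a median of -0.0099. There 2 were called, both lower, beside 29.3% of all genes called. Smarca2, the alternative motor known as BRM (chromosome 19, 26605050 to 26778322, plus strand), had 14.9, 48.5 and 11.3 CPM with doxycycline and 25.5, 59.5 and 37.2 CPM untreated. The doxycycline library was the lower within each number, by 0.77, 0.29 and 1.72 on the log2 scale, although replicate 2 of the doxycycline group lay above replicates 1 and 3 of the untreated group. The log2 fold change was -0.92 (SE 0.22, adjusted p = 0.011) paired and -0.71 (SE 0.57, adjusted p = 0.66) unpaired. In DESeq2 with the same pairing Smarca2 did not pass (adjusted p = 0.081). Smarca4, the main motor known as BRG1, had 209, 513 and 216 CPM with doxycycline, against 251, 471 and 384 CPM untreated. It was lower in numbers 1 and 3 and higher in number 2, and passed in neither fit (-0.32, SE 0.15, adjusted p = 0.15 paired).

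The core subunit Smarcb1 had 93.0, 92.1 and 105 CPM with doxycycline and 88.6, 79.9 and 91.3 CPM untreated. These values did not overlap, but the log2 fold change of 0.16 did not pass in either fit (SE 0.09, adjusted p = 0.20 paired; SE 0.13, adjusted p = 0.66 unpaired). Smarcd2, per kilobase the most abundant BAF gene, had 181, 173 and 162 CPM with doxycycline and 189, 167 and 148 CPM untreated (log2 fold change 0.03, SE 0.14, adjusted p = 0.95). Smarcd3, the form known from heart and muscle, was scarcely present, at 0.132, 0.164 and 0.151 CPM with doxycycline and 0.0793, 0.127 and 0.101 CPM untreated. Its values did not overlap, yet it passed in neither fit (log2 fold change 0.54, SE 0.34, adjusted p = 0.54 unpaired). Of its exonic bases 48.2% overlap Chpf2 and a microRNA gene, and without strand the reads of overlapping genes cannot be told apart.

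The ARID subunits, which set the BAF subtype, did not pass in either fit. Arid1a, of canonical BAF, had 86.6, 224 and 103 CPM with doxycycline and 108, 227 and 170.1 CPM untreated, and came closest (paired log2 fold change -0.35, SE 0.12, adjusted p = 0.059). Arid1b, its paralogue, stood at -0.32 (adjusted p = 0.19), and the PBAF subunits Arid2, Pbrm1 and Brd7 at 0.01, -0.03 and -0.04 in the paired fit. Brd9, of non-canonical BAF, had 25.2, 36.2 and 37.6 CPM with doxycycline, against 29.7, 40.9 and 52.4 CPM untreated. It was lower within each number and just short of the threshold when paired (-0.30, SE 0.10, adjusted p = 0.056). The remaining core and accessory genes, Smarce1, Smarcc1, Smarcc2 and Smarcd1, had unpaired log2 fold changes between -0.25 and -0.05, and none passed.

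Smarca5, the ISWI ATPase, had 239, 287 and 225 CPM with doxycycline and 197, 267 and 241 CPM untreated. Its groups overlapped, and the log2 fold change was 0.09 (SE 0.16, adjusted p = 0.87 unpaired; SE 0.10, adjusted p = 0.50 paired). The coding sequences of Smarca5 and Smarce1 have processed pseudogenes in the table at 96.8% to 98.9% identity, so reads could be split between them and both values are uncertain.

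Many of the members are encoded by long transcripts, and long transcripts differed between libraries of the same group. The longest transcript in the basic set of GENCODE had a median of 5.01 kb over the members and 2.57 kb over all genes tested. It exceeded 5 kb for 51.4% of members, against 15.7% of all genes. Over the 2204 genes above 5 kb, the median deviation from a gene's own mean over the 6 libraries was -0.22, 0.26 and -0.20 on the log2 scale with doxycycline and -0.17, 0.30 and 0.07 untreated. Replicate 2 was thus high in both groups, while replicate 3 was low with doxycycline and slightly high in untreated cells. The 18 members above 5 kb deviated the same way and further, by -0.37, 0.53 and -0.30 with doxycycline and -0.29, 0.39 and 0.11 untreated, and replicate 2 was the highest library in both groups for 15 of the 18. Expression differed between replicate numbers (edgeR, adjusted p under 0.05 in the paired fit) for 15 of these 18 members and for 5 of the 17 shorter ones, 20 of 35 in all, beside 43.3% of all genes tested.

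The same library pattern lay beside the direction of the fold changes. Of the 18 long members 14 had a negative paired log2 fold change and 17 were lower with doxycycline in number 3. Of the 17 shorter members 7 had a negative one and 6 were lower in number 3. The median difference over the long members was -0.10, 0.06 and -0.31 in numbers 1, 2 and 3, and over all genes above 5 kb it was -0.06, -0.0015 and -0.24. Across the 35 members Spearman's rho between length and the difference was -0.35, -0.09 and -0.63 in numbers 1, 2 and 3, beside -0.13, -0.08 and -0.27 over all genes tested, a description over genes of the same libraries. When a curve on transcript length and GC content was taken out of each library, an alternative chosen after the data were seen, the paired fit called 10 members (29.3% of all genes), 6 higher and 4 lower, 7 of them among the 8 called without it. Chd4 was no longer called (log2 fold change -0.29, adjusted p = 0.056), while Mta3, Rcor3 and Brd9 passed (adjusted p = 0.016, 0.018 and 0.048). In the unpaired fit the same correction left 0 members called.

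**Figure D4:**
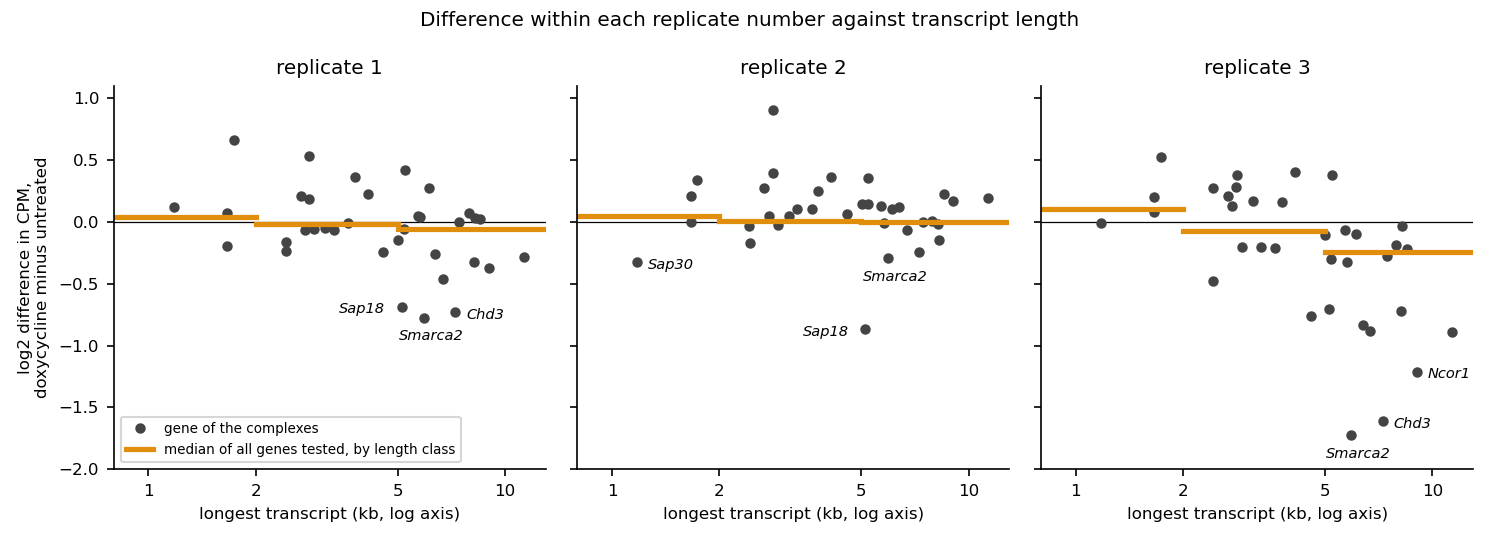
Log2 difference in CPM, doxycycline minus untreated, within replicate numbers 1, 2 and 3 against the length of the longest transcript (kb, log axis); dots are the 35 genes and orange lines the median of all genes tested in 3 length classes. In replicate 3 the long genes lie lowest, with Smarca2 at -1.72 and Chd3 at -1.61, and the median of all genes above 5 kb is -0.24.

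Interchangeable subunits were also compared within a library, where the scaling between libraries has no part, as the share of a family's counts per kilobase. Where paralogues differ in length, as Sin3a (5.2 kb) and Sin3b (4.1 kb) do, the library pattern of long transcripts need not cancel in a share. The part of that pattern in the shares was not tested. Smarca2 made up 7.12, 9.24 and 5.33% of Smarca2 and Smarca4 together with doxycycline, against 9.85, 11.98 and 9.47% in untreated cells. Every doxycycline share lay below every untreated share, and Smarca4 made up the rest in both groups. The share of Smarca4, being the remainder, repeats this result. The only other share whose groups did not overlap was that of Smarcd3, which was under 0.13% of its family in every library. For comparison, the CPM of 20.6% of all genes tested did not overlap between the groups. No test was made of these shares.

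Several other families differed in the same direction within each replicate number while their groups overlapped. Such agreement was common, as the CPM of 57.4% of all genes tested moved 1 way in all 3 numbers. Tbl1x took 75.9, 79.8 and 63.2% of the TBL1 pair with doxycycline and 70.6, 73.6 and 56.3% untreated, so its share was higher by 5.28, 6.22 and 6.88 percentage points within numbers 1, 2 and 3. Sin3b took 66.2, 48.1 and 61.5% of the SIN3 scaffolds with doxycycline, against 61.6, 44.3 and 49.5% untreated, higher by 4.54, 3.81 and 12 points. Sin3b had the larger share in both groups of replicate 1 and Sin3a in both groups of replicate 2, while in replicate 3 the larger share was that of Sin3b with doxycycline and of Sin3a untreated. Mta1 took 24.9, 27.5 and 28.2% of the MTA genes with doxycycline and 22.4, 23.3 and 25.4% untreated, and Mta2, the largest part at 63.9 ± 1.97% with doxycycline and 67.7 ± 2.48% untreated (SD, n = 3 each), differed by -3.59, -4.90 and -2.63 points within the numbers. Chd3 was 3.80, 5.02 and 6.48% of the CHD pair with doxycycline, against 4.53, 5.65 and 10.3% untreated. Rcor1 made up 61.2, 73.1 and 68.1% of the RCOR genes with doxycycline, against 66.6, 75.6 and 71.5% untreated, and the shares of Rcor2 and of Rcor3 were each higher within every number. By contrast Arid1a, at 85.5 ± 4.38% of the ARID1 pair with doxycycline and 86.0 ± 2.82% untreated, and Smarcd2, at 81.6 ± 2.995% of the SMARCD genes with doxycycline and 80.6 ± 3.56% untreated, had shares whose differences changed sign between the numbers.

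**Figure D5:**
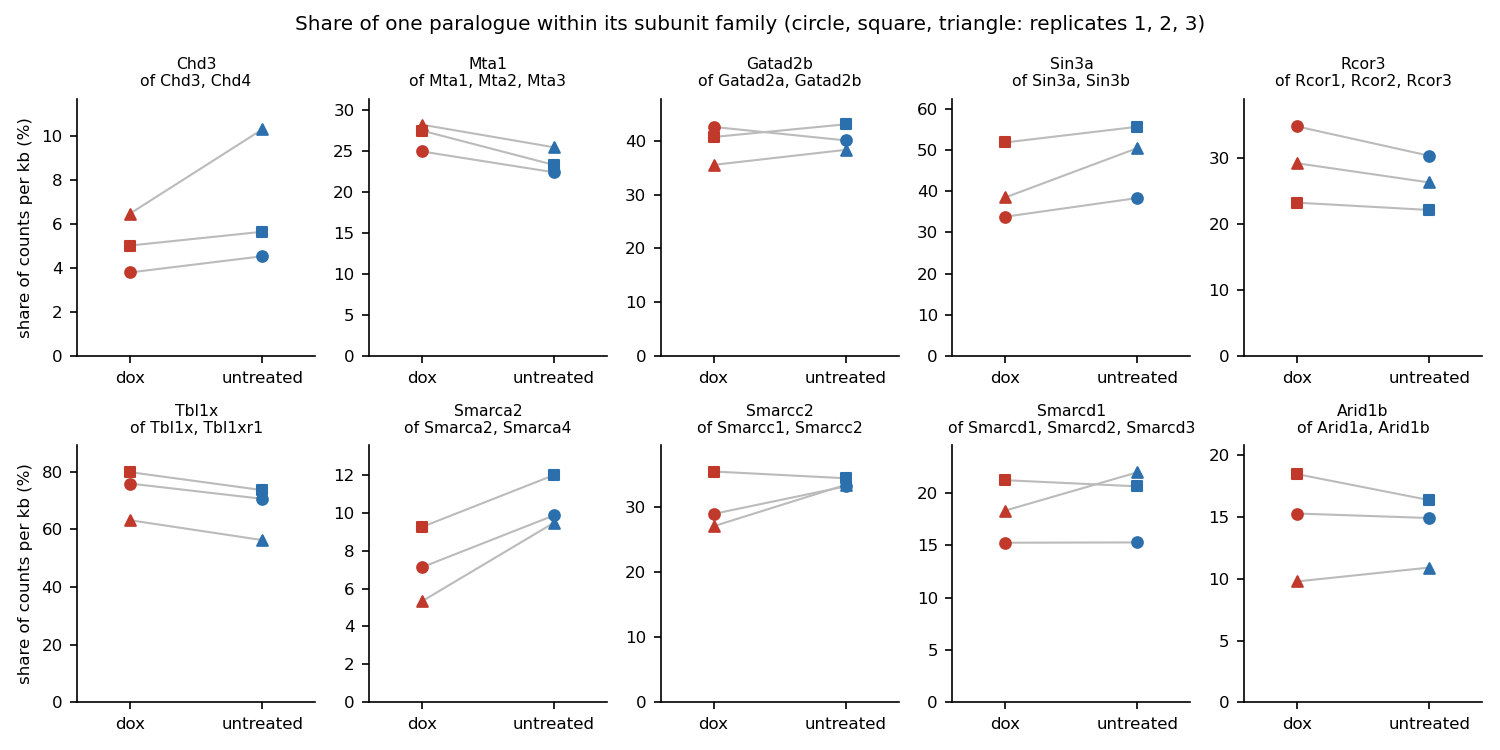
Share of 1 paralogue among the interchangeable subunits of its family, in percent of counts per kilobase, in doxycycline (red, left) and untreated (blue, right) libraries; grey lines join libraries of the same replicate number and the point shape gives that number. Smarca2 is lower with doxycycline on every line, without overlap of the groups, and Tbl1x and Mta1 are higher on every line.

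Among further subunits of the same complexes, Phf10 rose and Mbd2 and Pole3 fell without any pairing. Of 55 such genes, listed from general knowledge, 51 could be tested, and in the unpaired fit 1 rose (0.417% of all genes tested) and 2 fell (2.18%). Phf10, a PBAF subunit with histone-reading fingers, had 588, 538 and 499 CPM with doxycycline and 339, 351 and 290.1 CPM untreated (log2 fold change 0.73, SE 0.13, adjusted p = 0.039). Mbd2, the methyl-CpG reader that takes the place of MBD3 in some NuRD complexes, had 107, 100.9 and 136 CPM with doxycycline, against 207, 226 and 219 CPM untreated (log2 fold change -0.92, SE 0.15, adjusted p = 0.027). Its lowest untreated library was well above its highest doxycycline one. Pole3, a histone-fold subunit shared by DNA polymerase epsilon and the ISWI complex CHRAC, had 67.6, 65.7 and 93.8 CPM with doxycycline and 146, 141 and 156 CPM untreated (log2 fold change -0.96, SE 0.17, adjusted p = 0.035). With 1 of the 6 libraries left out, the log2 fold changes stayed between 0.65 and 0.80 for Phf10, -1.05 and -0.84 for Mbd2, and -1.14 and -0.87 for Pole3, while most of the calls were lost in these smaller designs. Phf10 did not pass when any of the 6 libraries was left out (adjusted p = 0.074 to 0.15), Mbd2 and Pole3 passed only when doxycycline replicate 3 was (adjusted p = 0.036 and 0.031), and none of the 3 passed without a filter on low counts. Of the exonic bases of Phf10, 9.57% overlap another gene.

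In the paired fit 5 of the 51 rose (10.3% of all genes tested did) and 7 fell (15.6%). BAF held 4 of the rises, Phf10, Dpf3, Bcl7a and Bcl7c, and 1 of the falls, Actb. Dpf3, another histone-reading BAF subunit, had 3.58, 5.07 and 5.66 CPM with doxycycline and 1.32, 1.67 and 2.62 CPM untreated, without overlap (paired log2 fold change 1.37, SE 0.16, adjusted p = 2.2e-04). Actb, the beta-actin that serves in BAF as well as in the cytoskeleton, had 831, 1134 and 788 CPM with doxycycline, against 1275, 1624 and 1307 CPM untreated, also without overlap (paired log2 fold change -0.62, SE 0.10, adjusted p = 0.0011), although sequences closely like its coding sequence lie elsewhere in the genome and make its count uncertain. Of 9 ISWI partners 4 fell, Pole3, Baz2b, Baz1a and Rsf1, with a median log2 fold change of -0.34 over the 9. Their median difference was -0.36, -0.02 and -0.73 in numbers 1, 2 and 3, and 7 of the 9, Baz2b, Baz1a and Rsf1 among them, have transcripts above 5 kb, whose library pattern is given above. Baz2b had 18.3, 55.0 and 19.8 CPM with doxycycline and 28.6, 70.5 and 53.8 CPM untreated (paired log2 fold change -0.81, SE 0.17, adjusted p = 0.0071), and Baz1a, which pairs with SMARCA5 in ACF, fell by 0.34 on the log2 scale (SE 0.11, adjusted p = 0.042). The SIN3 subunit Arid4b had 11.8, 26.3 and 17.9 CPM with doxycycline, against 15.1, 31.2 and 38.5 CPM untreated (paired log2 fold change -0.57, SE 0.16, adjusted p = 0.025). Chd5, the third NuRD ATPase, rose in the paired fit (0.78, SE 0.25, adjusted p = 0.043) at levels of 0.50, 1.64 and 0.41 CPM with doxycycline and 0.41, 0.91 and 0.17 CPM untreated. None of 10 CoREST partners, the demethylase LSD1 (Kdm1a) and Gfi1b among them, and none of 3 NCoR partners passed in either fit.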

How the data were processed

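RNA-seq libraries of 6 samples, 3 per group, were made from 300 ng of total RNA with the TruSeq RNA v2 kit per the labels' protocols, a chemistry without strand information. The authors deposited raw read counts per gene symbol. Per the submitters' processing notes, bcl2fastq 2.17.1.14, STAR and DESeq2 were used and the builds were mm10 and GRCm38, with no role stated. Which counter and annotation were used, and how reads shared by several genes were assigned, is not given in the sources used here. The smallest deposited count was 1 in every library, and taking 1 off was an alternative.

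Counts were tested as deposited with edgeR 4.0.16 (R 4.3.3, limma 3.58.1): TMM scaling, filterByExpr, the two-sided quasi-likelihood F test with the group as the only term, and Benjamini-Hochberg adjustment over the 14158 genes kept, at 0.05. The scripts were tested on simulated data. An SE is the size of the log2 fold change over the square root of F. Differences within replicate numbers used log2 CPM with a prior count of 1. The replicate numbers were taken to pair the libraries because same-numbered libraries deviated together from their group means although the labels give them no meaning. The correlation r of these deviations was 0.76, 0.73 and 0.72 for numbers 1, 2 and 3, and -0.59 to -0.09 for unlike numbers. Deviations from a group mean cancel within the group, so the values for unlike numbers are not independent of those for same numbers. The paired fit adds the number as a block and leaves 2 residual degrees of freedom in place of 4. On fewer numbers it leaves fewer still, so its counts of calls there cannot be set directly against those on all 3 numbers. Alternatives were RLE scaling, library totals, DESeq2 1.42.0, other filters on low counts and leaving out each library. The length and GC correction (loess, span 0.3), the paired fit on fewer numbers and the sum of Sap18 and Sap18b were chosen after the data were seen.

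Transcript lengths are those of the longest transcript in the basic set of GENCODE M21 (GRCm38), and shares within a family are counts per kilobase of it. Promoter windows are from RefSeq. Members and lists were chosen with earlier results of these data known. All 35 members are accounted for: those past the threshold in either fit and the most abundant of each complex have full values, and of the further subunits those past it without the block and up to 3 per complex with it.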

Additional observations from a re-analysis of the deposited data

How the results depend on the processing

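No value changed from a call in 1 direction to a call in the other. Scaling by RLE or library totals, taking 1 off every count, a CPM filter and leaving out each library kept the members called at 0 higher and 0 lower in the unpaired fit. With the replicate block 4 members were called higher and 4 lower in edgeR, and 4 and 3 in DESeq2; DESeq2 without it called 1 lower. The block with the length and GC correction called 6 higher and 4 lower. On the pairs other than number 1 it called 0 and 1, other than number 2 1 and 9, and other than number 3 5 and 4. Of the further subunits, 1 was called higher and 2 lower without the block. Without a filter on low counts both counts were 0, beside 4 higher and 62 lower of all 25628 genes. DESeq2 without the block called 2 higher, beside 291 of all 14158 genes tested. The block gave 5 higher and 7 lower in edgeR, 4 and 7 in DESeq2, and 8 and 5 with the length and GC correction. Other than number 1 it gave 2 and 3, other than number 2 4 and 14, and other than number 3 6 and 7. Over all 14399 genes tested on the pairs other than number 1, the block called 368 higher and 880 lower. Other than number 2 it called 1310 and 2119 of 14226, and other than number 3 2071 and 2677 of 14212. With the length and GC correction it called 1916 higher and 2229 lower of 14158. Leaving out 1 library, without the block, gave 0 higher and 0 to 2 lower among the further subunits. Over all genes tested it gave 0 to 26 higher and 35 to 242 lower.

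Median log2 fold changes were close to 0 and their sign depended on single libraries. Leaving out 1 library moved the median of all members between -0.21 (without doxycycline replicate 2) and 0.067, of NuRD between -0.14 and 0.077, of SIN3 between -0.086 and 0.074, of NCoR between -0.086 and 0.11 and of BAF between -0.30 and 0.019. With the length and GC correction NuRD had 0.068 without and 0.066 with the block, SIN3 0.027 and 0.012, and NCoR 0.061 without it; BAF had 0.0025 and -0.0099, and all members 0.046 and 0.047. SIN3 had -0.070 with the block, 0.0052 without a filter, and -0.060, 0.062 and -0.095 with the block on the pairs other than number 1, 2 and 3; NuRD had 0.046 on those other than number 1. The cause of these changes was not tested. Among fold changes of members that were not called, 43 of 210 changed sign when 1 library was left out and 8 of 35 under the length and GC correction without the block. The CoREST median stayed between 0.22 and 0.33 under each left-out library. Smarcd3 and Chd5 rest on few reads.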
